A study of Mus musculus with 21 samples.

Results

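Srsf3 encodes the splicing factor SRSF3, and its transcript is measured here under the crosslinks of SRSF3 itself and of the related factor SRSF7. The gene was taken as the stretch of mouse chromosome 17 from 29164512 to 29186676 on the plus strand (build mm9, chr17:29164512-29186676), 22165 nt in all. It is 1 gene, with 2791 of the 1387615 entries listed over the 6 deposited files, which fall on 1894 of 1201134 distinct positions. The assay was fractionation iCLIP, and the cells were P19, an embryonal carcinoma line of the mouse. Ultraviolet light at 254 nm (100 mJ/cm2) linked a GFP-tagged protein to the RNA it touched, the cells were split into subcellular fractions, and the start of each cDNA marked a linked nucleotide. The groups are P19 cells expressing SRSF3-GFP, from which chromatin, nucleoplasm and cytoplasm were taken (4 replicates per fraction), and P19 cells expressing SRSF7-GFP, from which the same fractions were taken (3 replicates per fraction). All of them carry a GFP fusion, and no untagged cells are among the 21 samples. The labels do not say how the tagged gene was introduced. RNA from an added copy of Srsf3 cannot be told apart from RNA of the cells' own copies, and an added copy would be in the SRSF3-GFP cells.

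SR proteins bind RNA through an RNA recognition motif and contact the splicing machinery through a domain rich in serine and arginine. SRSF3 is known to act on its own pre-mRNA. More SRSF3 favours inclusion of a cassette exon with premature stop codons, and the resulting RNA is a target of nonsense-mediated decay, which holds the protein's level in check. SRSF7 and other SR proteins are regulated in the same general way, and SRSF3 and SRSF7 have in addition been linked to mRNA export and 3' end choice. RefSeq lists Srsf3 (gene 20383) as a coding gene with a coding and a non-coding transcript and a length of 10713 nt in GRCm38.p6. The stretch is thus 2.07 times as long as the annotated gene, so part of it lies outside. No exon positions of build mm9 were used here, and no part of the stretch is called exon or intron. P19 markers were not checked for the same reason. RefSeq also holds a pseudogene, Srsf3-ps, on chromosome 11, and how reads that match both places were counted is not given in the sources used here.

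Replicates were pooled before deposit, so each protein and fraction has 1 value with no spread between replicates and no p-value. The files list positions that passed the authors' peak threshold, and a cDNA count is the number of cDNAs at listed positions. The SRSF7 track names carry a setting for regions that the SRSF3 names lack. Whether this affects the comparison of the proteins was not tested. Depth ran from 248498 listed cDNAs (SRSF7 chromatin) to 1768665 (SRSF3 chromatin). Intervals are exact 95% intervals, Clopper-Pearson for shares and conditional binomial for ratios. They allow for the error of counting alone, so any variation among replicates comes on top.

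SRSF3 crosslinked to its own transcript about 10 times more, per listed cDNA, than SRSF7 did, in every fraction. For SRSF3 the stretch held 6261 cDNAs at 1678 positions in chromatin, 1584 at 680 positions in nucleoplasm and 384 at 223 positions in cytoplasm. For SRSF7 it held 75 cDNAs at 62 positions in chromatin, 136 at 105 in nucleoplasm and 53 at 43 in cytoplasm. As shares of all listed cDNAs, the SRSF3 values were 0.354% in chromatin (0.345 to 0.363), 0.502% for nucleoplasm (0.478 to 0.527) and 0.149% for cytoplasm (0.135 to 0.165). The SRSF7 shares were 0.0302% (0.0237 to 0.0378), 0.0495% (0.0415 to 0.0585) and 0.0144% (0.0108 to 0.0189). The lowest SRSF3 share lay above the highest SRSF7 share.

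**Figure D1:**
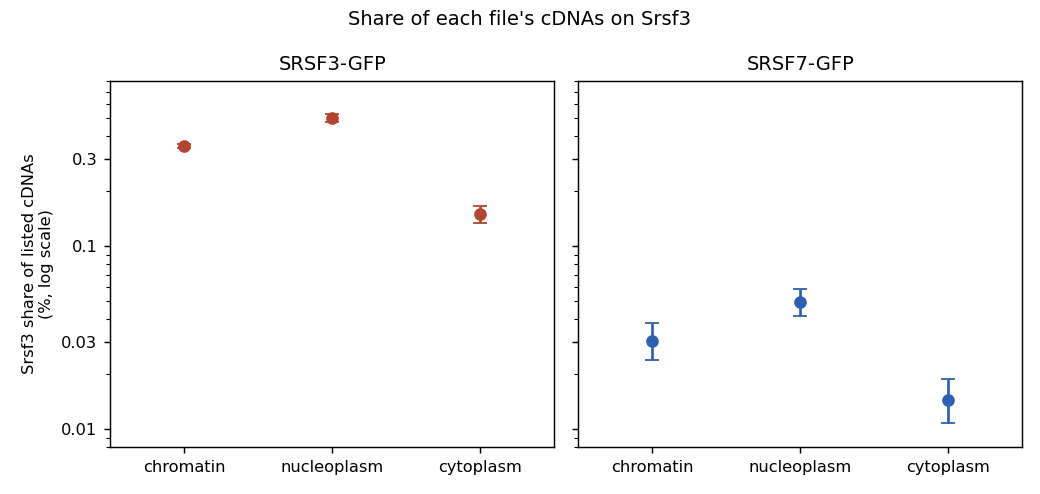
Srsf3 share of all listed cDNAs in each of the 6 pooled files, in percent on a log axis, SRSF3-GFP on the left and SRSF7-GFP on the right. Bars are exact 95% intervals for counting error; SRSF3 lies between 0.149% and 0.502%, SRSF7 between 0.0144% and 0.0495%, and nucleoplasm is highest and cytoplasm lowest for both.

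In chromatin the share of SRSF3 was 11.7 times that of SRSF7 (9.34 to 14.9). The ratio was 10.2-fold in nucleoplasm (8.52 to 12.2), and in cytoplasm it was 10.4-fold (7.75 to 14.1). All 3 intervals lay beyond 2-fold. Over all loci compared in the same way (positions at most 10000 nt apart were joined into a locus, and a locus needed 10 or more cDNAs in each file and 50 or more over the pair), 21.4% were beyond 2-fold higher for SRSF3 in chromatin, 12.7% in nucleoplasm and 14% in cytoplasm. Those beyond 2-fold lower made up 17.2%, 18.3% and 20.7%. The log2 ratio on Srsf3 was 3.55 in chromatin, where the median locus stood at 0.19 and 21 of 1358 loci, Srsf3 included, were at or above it. In nucleoplasm it was 3.34, against a median of -0.06, with 4 of 1093 loci at or above it. In cytoplasm it was 3.37, against a median of -0.11, with 9 of 866 loci at or above it. These counts leave out every locus with fewer than 10 cDNAs in either file, and some of those lay above Srsf3. In chromatin, the chromosome 17 locus from 28723866 to 28753521 had 417 SRSF3 cDNAs and no SRSF7 cDNA listed, with a lower bound of 3.98. The locus from 29291288 to 29350503 had 366 and none, with a lower bound of 3.79. In nucleoplasm, the minus-strand locus from 29180909 to 29189425, which overlaps the stretch, had 215 SRSF3 cDNAs and no SRSF7 cDNA listed. Its lower bound there was 5.65, and in cytoplasm it had 85 and 3, a log2 ratio of 5.34 (3.74 to 7.65). How many such loci there are was not counted. By cDNA number Srsf3 ranked 19th among the loci of SRSF3 chromatin, 14th in SRSF3 nucleoplasm and 61st in SRSF3 cytoplasm. In SRSF7 its ranks were 323, 263 and 819 in the same order of fractions. The distance between the proteins depends on height: counted as positions in place of cDNAs, the log2 ratio in chromatin was 1.24 (0.88 to 1.63), no longer beyond 2-fold. With positions of at least 3 cDNAs it was 8.42 in chromatin and 5.10 in nucleoplasm, because SRSF7 had 1 and 6 such positions on Srsf3.

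**Figure D2:**
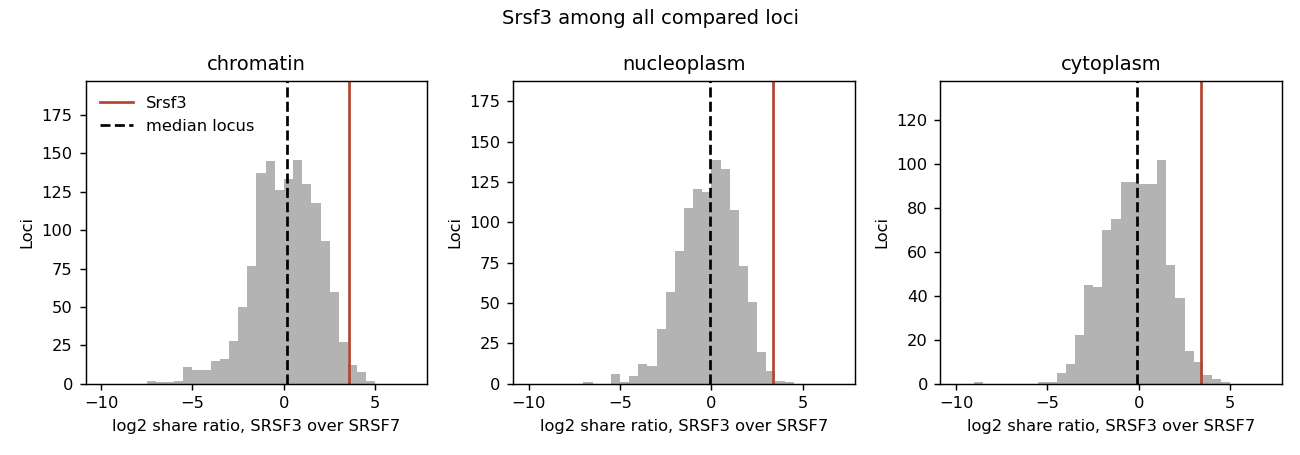
Number of loci by log2 ratio of their share in SRSF3 to their share in SRSF7, in chromatin, nucleoplasm and cytoplasm, with the median locus (dashed) and Srsf3 (solid line). Srsf3 stands at 3.55, 3.34 and 3.37, in the right tail of each distribution.

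Between fractions, Srsf3 took its largest share in nucleoplasm and its smallest in cytoplasm, for both proteins. Nucleoplasm exceeded cytoplasm 3.36-fold in the SRSF3 files (3.00 to 3.77). In the SRSF7 files it did so 3.43-fold (2.48 to 4.80), and both were beyond 2-fold. Among all compared loci of SRSF3, 16.8% were beyond 2-fold higher in nucleoplasm and 8.36% lower. For SRSF7 these were 22.6% and 16.6%. The log2 ratio on Srsf3 was 1.75 for SRSF3, against a median locus of 0.30, with 135 of 921 loci at or above it. For SRSF7 it was 1.78, against a median of 0.37, with 230 of 1248 loci at or above it. Counted as positions, neither ratio stayed beyond 2-fold, with log2 values of 0.71 (0.49 to 0.93) for SRSF3 and 1.41 (0.89 to 1.96) for SRSF7. Chromatin over cytoplasm was 2.37-fold for SRSF3 (2.14 to 2.63), beyond 2-fold as 20.8% of loci were, while 38% were beyond 2-fold lower. Among loci with at least 200 cDNAs that balance was the other way, with 38.8% higher and 25.4% lower. For SRSF7 it was 2.09-fold (1.45 to 3.03), with an interval that reached below 2-fold (22.3% of loci were beyond it, and 16.8% beyond 2-fold lower). In log2 these ratios on Srsf3 were 1.24 and 1.06, where the median locus stood at -0.74 for SRSF3 and 0.01 for SRSF7. Chromatin over nucleoplasm was 0.705-fold for SRSF3 (0.667 to 0.746). The SRSF7 value was 0.61-fold (0.454 to 0.815), and neither was beyond 2-fold. Both were close to the median locus, with log2 values of -0.50 and -0.71 against medians of -0.37 and -0.73. At or above Srsf3 were 937 of 1778 loci for SRSF3 and 451 of 915 for SRSF7, so the higher nucleoplasm share is not particular to Srsf3. Loci beyond 2-fold lower in chromatin than in nucleoplasm made up 31.6% for SRSF3 and 21.5% for SRSF7, and those higher 17.2% and 14.2%. For SRSF3 this balance also turned at 200 cDNAs per locus, to 16.3% lower and 33.8% higher. The intervals of the SRSF3 and SRSF7 ratios overlapped in each of these pairs of fractions, and the difference between the proteins was not tested.

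The SRSF3 chromatin to cytoplasm ratio was the least stable of these values. Its log2 was 1.24 as given, 0.52 (0.37 to 0.67) once mitochondrial cDNAs and the 10 highest loci were left out, and 3.08 with positions of at least 3 cDNAs. It turned to -0.98 (-1.18 to -0.77) when positions were counted; the SRSF3 chromatin file lists 870234 positions and the cytoplasm file 58686. The chromatin to nucleoplasm log2 ratio of SRSF3, -0.50, became 0.39 with positions of at least 3 cDNAs and -1.69 (-1.82 to -1.56) with positions counted, the second of which is beyond 2-fold. For SRSF7 it became -2.93 (-5.33 to -1.15) with positions of at least 3 cDNAs, also beyond 2-fold, from 1 chromatin and 6 nucleoplasmic positions.

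Heights on the gene differed from those of the files as a whole. In SRSF3 chromatin, Srsf3 positions held 3.73 cDNAs on average, against 2.03 over the file, and 36.4% of them held a single cDNA. In SRSF3 nucleoplasm the mean was 2.33 against 2.88, and in SRSF3 cytoplasm 1.72 against 4.38. SRSF7 positions on Srsf3 were low in all fractions, with means of 1.21, 1.30 and 1.23 in chromatin, nucleoplasm and cytoplasm, against 3.26, 2.10 and 2.58 over the files. Between 76.2% and 80.6% of them held a single cDNA. Of the 6 files, SRSF3 chromatin was thus the only one where positions on Srsf3 were taller than the file's average.

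Most cDNAs of both proteins lay in one short part of the stretch. The 2000 nt with the most SRSF3 chromatin cDNAs ran from 29175608 to 29177607, beginning 11096 nt after the start of the stretch, and made up 9.02% of its length. This part, here called the core, held 68.6% of the gene's SRSF3 cDNAs in chromatin, the file that chose it. In the other 5 files, which did not choose it, it held 90.4% in SRSF3 nucleoplasm (88.8 to 91.8), 87.5% in SRSF3 cytoplasm (83.8 to 90.6), 74.7% in SRSF7 chromatin (63.3 to 84.0), 84.6% in SRSF7 nucleoplasm (77.4 to 90.2) and 94.3% in SRSF7 cytoplasm (84.3 to 98.8). The densest 2000 nt chosen separately in each file (the first, where several tied) began between 29175117 and 29175715. The median cDNA lay 12235, 12165 and 12225 nt from the start for SRSF3 in chromatin, nucleoplasm and cytoplasm. For SRSF7 it lay 11750, 11838 and 11755 nt from the start, nearer the 5' side of the core.

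**Figure D3:**
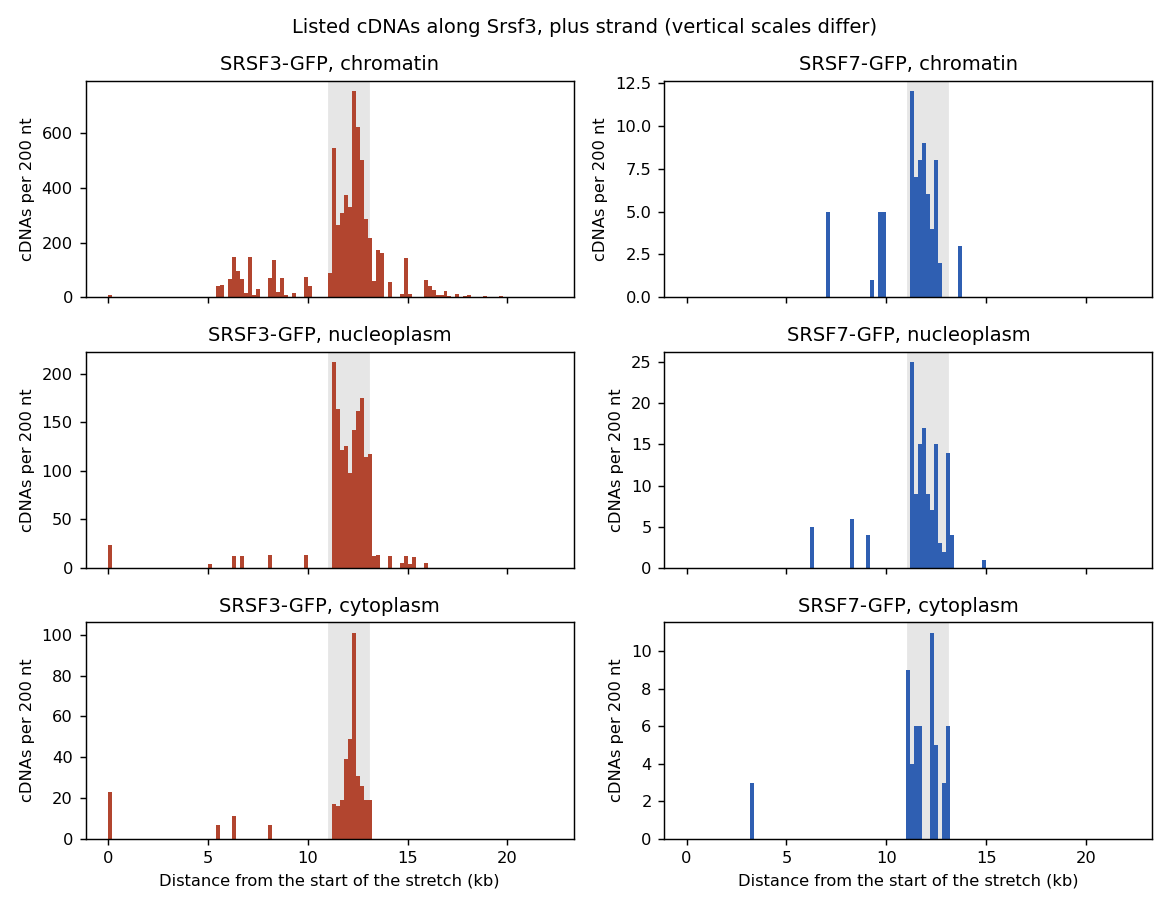
Listed cDNAs per 200 nt along the Srsf3 stretch (plus strand) against distance from its start in kb, SRSF3-GFP on the left, SRSF7-GFP on the right, with chromatin, nucleoplasm and cytoplasm from top to bottom and a separate vertical scale per panel. The grey band is the 2000 nt core, which holds between 68.6% and 94.3% of the cDNAs of a file; SRSF3 chromatin also shows cDNAs on both sides of it.

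Outside the core, SRSF3 took a larger part of its listed cDNAs in chromatin than in the other fractions. There were 1964 such cDNAs in chromatin, 31.4% of the gene's (30.2 to 32.5). Nucleoplasm had 152, or 9.60% (8.19 to 11.2), and cytoplasm 48, or 12.5% (9.36 to 16.2). Per listed cDNA, chromatin exceeded cytoplasm 5.95-fold outside the core (4.47 to 8.09) and 1.86-fold inside it (1.66 to 2.08). Chromatin exceeded nucleoplasm 2.30-fold outside the core (1.95 to 2.74) and fell below it inside, at 0.535-fold (0.504 to 0.569). SRSF3 chromatin was also the deepest file, and low clusters can go unlisted in a shallower one. The part of depth in these values was not tested. For SRSF7, 19, 21 and 3 cDNAs lay outside the core in chromatin, nucleoplasm and cytoplasm. The SRSF7 ratio of chromatin to nucleoplasm was 1.001-fold outside (0.509 to 1.96) and 0.539-fold inside (0.384 to 0.748), and these intervals overlap. The ratio of chromatin to cytoplasm was 9.36-fold outside (2.76 to 49.4) and 1.66-fold inside (1.11 to 2.47). The core itself separated the proteins as the whole stretch did, with SRSF3 over SRSF7 at 10.8-fold in chromatin (8.29 to 14.3), at 10.9-fold for the nucleoplasm files (8.97 to 13.2) and at 9.60-fold for the cytoplasm files (7.12 to 13.2). SRSF3 chromatin positions were taller inside the core, with 4.55 cDNAs on average against 2.68 outside.

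Joined at gaps of up to 1000 nt, the listed positions formed 5 segments. The one with the core ran from 29175634 to 29184151 and held 5142, 1506 and 336 SRSF3 cDNAs in the chromatin, nucleoplasm and cytoplasm files, and 59, 121 and 50 SRSF7 cDNAs. Before it came 1009 nt without a listed position in any file. The segment on the 5' side of that gap, from 29169615 to 29174624, held 1110, 54 and 25 SRSF3 cDNAs. These were 17.7% (16.8 to 18.7), 3.41% (2.57 to 4.42) and 6.51% (4.26 to 9.46) of the gene's SRSF3 cDNAs. In this segment SRSF7 had 16 cDNAs in chromatin, 15 in nucleoplasm and none listed in cytoplasm. Chromatin thus gave this segment a larger part of the listed SRSF3 cDNAs than either other fraction did, by intervals that do not overlap. The part of depth was not tested here either. Together these 2 segments span 14537 nt, more than the 10713 nt annotated for Srsf3 in GRCm38.p6.

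A short patch stood apart at the very start of the stretch. From 29164512 to 29164561, 50 nt held 7 chromatin, 24 nucleoplasmic and 23 cytoplasmic SRSF3 cDNAs, and SRSF7 was not listed there. It took 5.99% of the gene's SRSF3 cDNAs in cytoplasm (3.83 to 8.85), 1.52% in nucleoplasm (0.973 to 2.25) and 0.112% in chromatin (0.045 to 0.23). From its end to the end of the core there are 13046 nt, so a gene of the annotated length could not contain both.

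Positions pooled over the 6 files and no more than 30 nt apart were joined into clusters, of which there were 62. SRSF3 was listed in 58 of them and SRSF7 in 19, with 15 in common. By file, 57 clusters were listed in SRSF3 chromatin, 21 in SRSF3 nucleoplasm and 11 in SRSF3 cytoplasm, and 11, 13 and 6 in SRSF7 chromatin, nucleoplasm and cytoplasm. All 3 SRSF3 fractions were listed in 9 clusters, and all 3 SRSF7 fractions in 4, which were also the clusters with all 6 files. A further 31 clusters were listed in SRSF3 chromatin alone and held 780 cDNAs, 12.5% of its cDNAs on the gene. Only 4 clusters were listed for SRSF7 and not for SRSF3, with 17 of the 264 SRSF7 cDNAs. SRSF3 chromatin was also the deepest file, with 1768665 listed cDNAs against 315510 in nucleoplasm and 257089 in cytoplasm, and the part of depth in the number of clusters was not tested.

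The 5 clusters with the highest mean share over the 6 files all lay in the core. The leading one, from 29176644 to 29177354 (711 nt), held 2133, 551 and 179 SRSF3 cDNAs in the chromatin, nucleoplasm and cytoplasm files, and 15, 25 and 16 SRSF7 cDNAs. As a share of the gene's own cDNAs this was 34.1% (32.9 to 35.3), 34.8% (32.4 to 37.2) and 46.6% (41.5 to 51.7) for SRSF3. For SRSF7 it was 20% (11.6 to 30.8), 18.4% (12.3 to 25.9) and 30.2% (18.3 to 44.3). The leading cluster thus took a larger share of SRSF3 cDNAs in cytoplasm than in the other fractions, and within nucleoplasm it took more of SRSF3 than of SRSF7, with a log2 ratio of shares of 0.92 (0.34 to 1.56). In chromatin that ratio was 0.77 (0.04 to 1.61) and in cytoplasm 0.63 (-0.11 to 1.46). In each fraction it was the highest among clusters with both proteins listed and at least 20 cDNAs. Clusters without a listed SRSF7 cDNA were not ranked. The one from 29176399 to 29176597 lay above it in cytoplasm, with a lower bound of 0.76. Joined at 15 nt the leading cluster split into 3 parts of 243, 138 and 290 nt. The first of these, up to 29176886, held 122 of the cluster's 179 SRSF3 cytoplasmic cDNAs but 933 of 2133 in chromatin.

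The cluster at the 5' edge of the core took a smaller share of SRSF3 in cytoplasm than in the other fractions. From 29175634 to 29175934 (301 nt) it held 669, 233 and 17 SRSF3 cDNAs in chromatin, nucleoplasm and cytoplasm, which were 10.7% (9.93 to 11.5), 14.7% (13.0 to 16.6) and 4.43% (2.60 to 6.99) of the gene's. For SRSF7 it held 12, 25 and 13 cDNAs, or 16% (8.55 to 26.3), 18.4% (12.3 to 25.9) and 24.5% (13.8 to 38.3). In cytoplasm it therefore made up less of SRSF3 than of SRSF7, with a log2 ratio of shares of -2.47 (-3.60 to -1.31), the lowest in that fraction among clusters with both proteins listed and at least 20 cDNAs. In nucleoplasm the ratio was -0.32 (-0.92 to 0.34), an interval that includes equal shares.

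The remaining leading clusters were smaller. The one from 29177405 to 29177607, at the 3' edge of the core, held 441, 209 and 38 SRSF3 cDNAs in the chromatin, nucleoplasm and cytoplasm files, and 15 and 9 SRSF7 cDNAs in nucleoplasm and cytoplasm. SRSF7 was not listed there in chromatin. Its share of SRSF3 cDNAs was 7.04% in chromatin (6.42 to 7.71) and 13.2% in nucleoplasm (11.6 to 14.96). The cluster from 29176011 to 29176132 likewise took 4.89% of SRSF3 in chromatin (4.37 to 5.45) and 11.0% in nucleoplasm (9.55 to 12.7), with 4.17% in cytoplasm (2.40 to 6.68). SRSF7 shares there were 9.33%, 9.56% and 11.3%, from 7, 13 and 6 cDNAs. The cluster from 29176399 to 29176597 took more of SRSF3 in cytoplasm, at 12.2% (9.13 to 15.9). It took 5.59% in chromatin (5.03 to 6.19) and 7.32% in nucleoplasm (6.09 to 8.72). SRSF7 had 9 and 16 cDNAs there in chromatin and nucleoplasm and none listed in cytoplasm, where SRSF3 had 47.

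**Figure D4:**
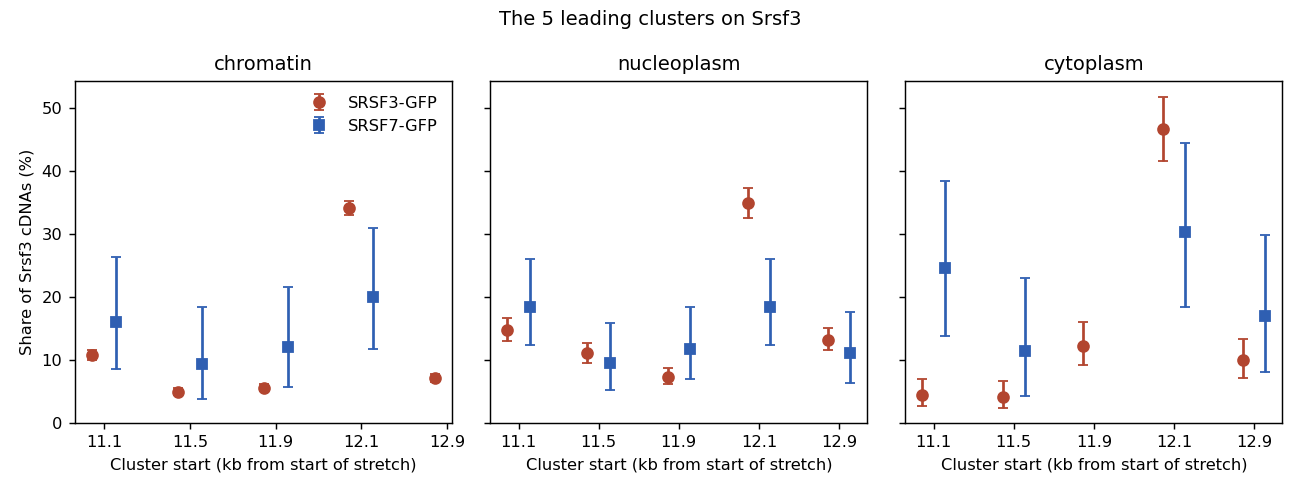
Share of the gene's own cDNAs, in percent, in the 5 leading clusters of Srsf3, by cluster start in kb from the start of the stretch, for chromatin, nucleoplasm and cytoplasm, with SRSF3-GFP (circles) left of SRSF7-GFP (squares) and exact 95% intervals. No point is drawn where a cluster is not listed; in cytoplasm the cluster at the 5' edge of the core holds 4.43% of SRSF3 and 24.5% of SRSF7.

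Among clusters with SRSF3 and SRSF7 both listed and at least 20 cDNAs in the pair of files, the lowest SRSF3 to SRSF7 ratios of shares rested on few SRSF7 cDNAs. In chromatin the lowest lay outside the core, from 29171564 to 29171590, with 45 SRSF3 cDNAs (0.719% of the gene's) and 5 SRSF7 cDNAs (6.67%), a log2 ratio of -3.21 (-4.54 to -1.52). In nucleoplasm the lowest was from 29176334 to 29176368, where SRSF3 had 58 cDNAs, SRSF7 had 10, and the log2 ratio was -1.01 (-1.99 to 0.13). These intervals are wide, since SRSF7 had 75 and 136 cDNAs on the whole gene in these fractions.

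Single positions repeated between fractions of SRSF3. The tallest in chromatin, 29176675, had 56 cDNAs there, 19 in nucleoplasm and 10 in cytoplasm, and ranked 1, 4 and 2 in height. Position 29176794 had 47, 13 and 15 cDNAs and was the tallest in cytoplasm. Position 29176094 was the tallest in nucleoplasm, with 28 cDNAs, and had 42 in chromatin and 5 in cytoplasm. Some nucleotides were therefore among the highest in more than 1 fraction. Others were not: 29177587 ranked 2 in nucleoplasm, with 24 cDNAs, and had 31 in chromatin but 1 in cytoplasm, where it ranked 75. Position 29176093 ranked 3 in nucleoplasm, with 20 cDNAs, and had 43 in chromatin and 3 in cytoplasm, where it ranked 17. Position 29176739 was tall in chromatin (37 cDNAs) and cytoplasm (10) and was not listed in nucleoplasm. Position 29178223, with 45 cDNAs in chromatin, was listed in no other file. Positions listed in all 3 SRSF3 fractions numbered 129, and they held 22.4% of the gene's chromatin cDNAs of SRSF3, 34.2% of the nucleoplasmic and 65.6% of the cytoplasmic ones.

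One spot was common to both proteins in all fractions. Position 29176092 was the single nucleotide listed in all 6 files, with 11, 6 and 2 SRSF3 cDNAs in the chromatin, nucleoplasm and cytoplasm files and 1, 1 and 2 SRSF7 cDNAs. Within 5 nt of its neighbour 29176094 lay 169, 86 and 14 SRSF3 cDNAs and 7, 8 and 6 SRSF7 cDNAs. These were 2.70%, 5.43% and 3.65% of the gene's SRSF3 cDNAs, and 9.33%, 5.88% and 11.3% of its SRSF7 cDNAs. At 29176094 SRSF7 had its tallest chromatin position on the gene, of 3 cDNAs. Around 29176675 SRSF7 was not listed within 5 nt in any fraction, and around 29176794 it had 1 cDNA, in nucleoplasm.

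Most nucleoplasmic and cytoplasmic SRSF3 positions lay next to chromatin positions of SRSF3, and most SRSF7 positions next to SRSF3 positions of the same fraction. Of SRSF3 positions on the gene, 92.8% of those in nucleoplasm (90.6 to 94.6) and 96.9% of those in cytoplasm (93.6 to 98.7) were within 5 nt of a chromatin position, against 57.7% and 55.4% over the whole files. In the opposite sense, 57.3% of chromatin positions lay near a nucleoplasmic one and 31.2% near a cytoplasmic one. Of SRSF7 positions, 87.1% were near an SRSF3 position in chromatin (76.1 to 94.3), 81.9% for nucleoplasm (73.2 to 88.7) and 69.8% for cytoplasm (53.9 to 82.8), while 51.3%, 25.9% and 21.9% were over the whole files. Taken as shares of the SRSF3 lists, 13.6%, 33.4% and 26.01% of SRSF3 positions were near an SRSF7 position in chromatin, nucleoplasm and cytoplasm. Over the whole files these were 7.62%, 35.7% and 53.4%, so in cytoplasm the value on Srsf3 was below that of the file. Among the SRSF7 fractions sharing was lower, with 40.3% of chromatin positions near a nucleoplasmic one and 27.9% of cytoplasmic positions near a chromatin one, against whole-file values of 42.0% and 19.8%. Near a cytoplasmic SRSF7 position lay 17.7% of the chromatin and 21.0% of the nucleoplasmic ones, against 34.1% and 33.7% over the files. These shares grow with the number of listed positions, and Srsf3 is densely listed for SRSF3. With each file thinned to 53 cDNAs on the gene, they came to between 31.3% and 44.8% for the 3 pairs of proteins and the 2 SRSF3 pairs with chromatin.

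The profiles were partly alike on a coarser scale. Over the 57 bins of 200 nt with a cDNA in any file, Pearson's r between SRSF3 chromatin and nucleoplasm was 0.89 and Spearman's rho 0.64. Chromatin and cytoplasm of SRSF3 gave 0.82 and 0.62. Between SRSF3 and SRSF7, r was 0.70 in chromatin, 0.84 in nucleoplasm and 0.61 in cytoplasm, and rho was 0.54, 0.69 and 0.54. Within SRSF7, chromatin and nucleoplasm gave an r of 0.80 and a rho of 0.55. Chromatin and cytoplasm of SRSF7 gave an r of 0.40 and a rho of 0.39, from 75 and 53 cDNAs. That r depends on the bin width, since with bins of 500 nt it was 0.74. The bins all lie in 1 stretch, and only positions past a peak threshold are listed, so these values describe the profiles and carry no p.

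The surroundings of the gene were examined on both strands up to 500 kb away, for loci with at least 50 cDNAs over the 6 files. The closest, on the minus strand from 29180909 to 29189425, overlaps the stretch. It had 66, 215 and 85 SRSF3 cDNAs in chromatin, nucleoplasm and cytoplasm, and SRSF7 had 3, in cytoplasm. Lower bounds of log2 were 1.29 in chromatin and 5.65 in nucleoplasm, and the cytoplasm value was 5.34 (3.74 to 7.65). Srsf3 is preceded by the lncRNA gene Gm16196 and followed by Gm41556, Trp53cor1 and Cdkn1a in the GRCm38.p6 gene order. On the 3' side, a locus 104612 nt beyond the stretch, on the minus strand from 29291288 to 29350503, had 366, 179 and 211 SRSF3 cDNAs in chromatin, nucleoplasm and cytoplasm. SRSF7 was not listed there in chromatin and had 11 and 13 cDNAs in nucleoplasm and cytoplasm, for log2 ratios of 3.83 (2.95 to 4.85) and 4.54 (3.73 to 5.47). Farther out, a minus-strand locus from 29583807 to 29583991 gave 2.77 (1.54 to 4.29) and 1.96 (0.64 to 3.45). A plus-strand locus from 29650509 to 29650696 gave -0.42 in chromatin, 1.97 in nucleoplasm and 3.49 in cytoplasm. The nearest locus on the 5' side, on the minus strand from 29107889 to 29144811, differed in direction between fractions. It had 604 SRSF3 and 11 SRSF7 cDNAs in chromatin, a log2 ratio of 2.95 (2.10 to 3.96), but 16 and 62 in nucleoplasm, a log2 ratio of -2.15 (-3.05 to -1.34). Other loci on that side went both ways, by locus and by fraction. From 28828114 to 28841709 (plus strand) the chromatin value was -2.22. From 28723866 to 28753521 (minus strand) it was -2.20 in nucleoplasm and -1.61 in cytoplasm, but chromatin had 417 SRSF3 cDNAs and no SRSF7 cDNA listed. From 28852343 to 28883457 (plus strand) chromatin had 58 SRSF3 cDNAs and no SRSF7 cDNA, while cytoplasm had 9 of SRSF7 and none of SRSF3. From 29098405 to 29107089 (plus strand) the chromatin value was 1.66 (-0.28 to 4.75), from 45 and 2 cDNAs. In the 100 kb directly beyond the stretch, on its 3' side, there were 21, 2 and 13 SRSF3 cDNAs and 11, 2 and 10 SRSF7 cDNAs. The part of an added copy in the SRSF3 values was not tested.

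The loci most like Srsf3 in their pattern over the 6 files were found by the distance between log2 shares, each centred on its mean, among 141 loci with at least 50 cDNAs in every file. The closest lay on the plus strand of chromosome 7 from 3217831 to 3226039, with 2194, 1135 and 141 SRSF3 cDNAs in the chromatin, nucleoplasm and cytoplasm files and 68, 237 and 119 SRSF7 cDNAs. Its distance was 2.49, where the median locus stood at 5.36. The next were on chromosome 6, on the plus strand from 132405357 to 132410329 (2.90) and on the minus strand from 128710087 to 128714246 (3.24). All 3 had larger SRSF3 than SRSF7 shares in every fraction, as Srsf3 did, with smaller ratios. For the minus-strand locus the chromatin shares were close, at 0.0287% for SRSF3 and 0.0258% for SRSF7, from 507 and 64 cDNAs.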

How the data were processed

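Fractionation iCLIP libraries of SRSF3-GFP (4 replicates per fraction) and SRSF7-GFP (3) were pooled by the authors into 1 list per protein and fraction, per the file headers. The deposited score in each entry is a signed whole number for 1 nucleotide, read here as a cDNA count whose sign gives the strand (inferred from the values). Per the file headers, positions passed a false discovery rate of 0.05 against 100 permutations with a 15 nt neighbourhood, on build mm9. For SRSF7 the track names and descriptions differ on whether regions were treated separately. The SRSF3 track names do not say that regions were treated as one, so peak calling may have differed between the proteins. The sources used here do not give the aligner, the caller or the removal of duplicate cDNAs. The counts show no scaling to depth.

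Groups were taken from the sample titles. Shares are cDNAs on the stretch over all listed cDNAs of a file. Loci, clusters (30 nt), bins (200 nt) and sharing (5 nt) were computed as stated with the results. Simulated data were used to check the script that compares loci. Named items are the 5 clusters of highest mean share, the 3 tallest positions of each file (SRSF7 heights were tied) and the 3 most similar loci. The clusters of highest and lowest SRSF3 to SRSF7 ratio, with both proteins listed and at least 20 cDNAs, were also named. Other clusters, segments and neighbouring loci were chosen after their values were seen. The gene and these lists were chosen with earlier results of these data known. Software versions were scipy 1.17.1, numpy 2.4.6, matplotlib 3.10.9, pandas 2.3.3 and Python 3.11.15.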

Additional observations from a re-analysis of the deposited data

Results flagged for a closer look

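The minus strand of the Srsf3 stretch also carried listed cDNAs, and these were not counted as Srsf3 in any comparison above. SRSF3 had 76 in chromatin, 215 in nucleoplasm and 85 in cytoplasm, while SRSF7 had none listed within the stretch in any fraction. Most lay in 293 nt from 29180909 to 29181201, beginning 16397 nt after the start of the stretch, with 63, 205 and 85 SRSF3 cDNAs in chromatin, nucleoplasm and cytoplasm at 38, 98 and 46 positions. Per 100 plus-strand cDNAs of the stretch there were 1.21 minus-strand cDNAs in SRSF3 chromatin, 13.6 in nucleoplasm and 22.1 in cytoplasm. On the plus strand, SRSF3 chromatin alone was listed beyond 29180443.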

How the results depend on the processing

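Each log2 ratio of Srsf3 shares was recomputed under 5 alternatives, of which the one limited to the core was chosen after seeing the data. With positions of at least 3 cDNAs the log2 ratios were 3.08 (chromatin over cytoplasm), 0.39 (chromatin over nucleoplasm) and 2.69 (nucleoplasm over cytoplasm) for SRSF3, -2.93 (chromatin over nucleoplasm, then beyond 2-fold) for SRSF7, and 8.42 and 5.10 for SRSF3 over SRSF7 in chromatin and nucleoplasm. No SRSF7 cytoplasmic position passed, so ratios with that file could not be computed. With mitochondrial cDNAs and the 10 highest loci left out, the SRSF3 ratios were 0.52, -0.88 and 1.39 in the same order, and SRSF3 over SRSF7 in chromatin was 3.22. With positions counted they were -0.98, -1.69 and 0.71 for SRSF3, 0.019 for SRSF7 chromatin over nucleoplasm, and 1.24 and 2.95 for SRSF3 over SRSF7 in chromatin and nucleoplasm. The first of these reversed, and the second was then beyond 2-fold; the SRSF3 files differ widely in listed positions. Within the core, chromatin over cytoplasm and chromatin over nucleoplasm of SRSF3 were 0.89 and -0.90. Leaving out the gene's tallest position in each file kept all 9 within their intervals. With positions of at least 3 cDNAs the core held 73.3%, 95.05% and 91.5% of SRSF3 cDNAs in chromatin, nucleoplasm and cytoplasm and 100% in SRSF7 chromatin, from 3 cDNAs.

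At an exact match (0 nt), 77.2% and 86.1% of SRSF3 nucleoplasmic and cytoplasmic positions were shared with chromatin, and 75.8%, 62.9% and 32.6% of SRSF7 positions with SRSF3 in chromatin, nucleoplasm and cytoplasm. At 15 nt the 2 SRSF3 values were 96.3% and 99.1%, and with positions of at least 3 cDNAs the cytoplasmic one was 92.6%. Thinned to 53 cDNAs (mean of 100 draws), the 5 values were 31.6%, 35.8%, 31.3%, 40.6% and 44.8%. Each file's own top cluster, which need not be the one described above, held between 14.6% and 31.8% of its cDNAs on the gene at a gap of 15 nt and between 57.9% and 83.1% at 60 nt, where it began at 29176011. With bins of 500 nt, 8 of the 15 profile correlations moved by 0.1 or more. Loci beyond 2-fold higher for SRSF3 than for SRSF7 numbered 291, 139 and 121 in chromatin, nucleoplasm and cytoplasm. With loci joined at 1000 nt, they were 159 in chromatin. With at least 200 cDNAs per locus they were 59 in nucleoplasm and 52 in cytoplasm. Under that filter 15 of the 18 counts of called loci fell by more than 1.5 times, to between 34 and 147, fewer loci being compared, while shares of called loci changed. For SRSF3 over SRSF7 in chromatin 33.1% were then higher, and for SRSF3 chromatin over cytoplasm 38.8% were higher and 25.4% lower. No paired analysis was possible because the replicates were pooled before deposit, and no replicate could be left out for the same reason.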
